A study of Mus musculus with 8 samples.

Results

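The epidermal growth factor receptor family and its ligands were followed in a pair of mouse colon carcinoma lines. The genes were the receptors Egfr, Erbb2 and Erbb3, the ligands Btc, Areg, Ereg, Hbegf, Tgfa and Egf, and the receptor inhibitor Errfi1. They were found by gene symbol, taken from the name column of the array tables or from the platform annotation, among all spots that were not controls. All 10 genes were present, with 23 of the 41174 probes of the array. CT26-FL3 is a line selected in vivo from CT26 by 3 passages through the liver; its lesions were cut out, digested with enzymes and grown for a short time so that stromal cells would be lost. CT26 is the parental line, a colon carcinoma of Balb/c mice that metastasises poorly to the liver. Both are labelled as male Balb/c cells and share 1 culture medium, DMEM with 10% serum, and no treatment or transgene is named for either. RNA of 4 samples of each line (integrity numbers of 8 to 10, 500 ng of input) was labelled with Cy3 and hybridised to 8 Agilent 1-colour arrays. The design text describes the samples as independent, but no source says that each came from its own culture; the p-values therefore speak of the spread among these samples, and that spread may be technical.

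ErbB receptors are tyrosine kinases of the cell surface that pair with one another when a ligand binds, and the pairs feed the RAS-ERK and PI3K-AKT pathways. The ligands are made as membrane proteins and are shed by ADAM proteases; ERBB2 has no known ligand of its own, and ERBB3 has little kinase activity and signals through its partner. ERRFI1, also called MIG6, is induced by receptor signalling and inhibits the receptor kinase. In the intestine EGFR ligands sustain proliferation of crypt cells, and EGFR is a drug target in colorectal cancer.

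Values are normalised intensities, in which 1000 stands for the 75th percentile of the gene probes of that array. A probe was taken as detected on an array where it lay above a limit set from that array's negative control spots, which came to between 15.8 and 28.7 normalised units. The highest of these limits was that of CT26 replicate 4, whose negative controls were also the brightest. Probes detected on at least 4 of the 8 arrays were tested (23068 probes), and each fold change is CT26-FL3 over CT26 on the log2 scale. Levels of different probes cannot be set against each other. In bulk RNA, fewer cells of a type and less RNA per cell cannot be told apart.

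Egfr rose in CT26-FL3, together with the ligand genes Btc and Hbegf and the inhibitor gene Errfi1, while Areg, Ereg and Tgfa did not pass the test. Erbb2 was slightly lower and Egf slightly higher, and Erbb3 was not detected. Of the 23 probes, 15 probes of 9 genes were detected on enough arrays to be tested; 7 of them were higher in CT26-FL3, 1 was lower and 7 did not pass at an adjusted p of 0.05. Among all probes tested, 22.9% were called higher, 25.4% lower and 48.3% in either direction, so that 8 calls among 15 is near the background. One of the 7 higher probes, A_51_P392242 of Egfr, was detected on no CT26 array. It was tested only through the line in which it is high, and its place among the calls is no support for a rise. A_52_P56471 of Egfr was detected on 2 of the 4 CT26 arrays and also reached the filter only with CT26-FL3. Its call is likewise no support for a rise. Of the 12 family probes detected on all 8 arrays, 5 were higher, 1 was lower and 6 did not pass, against 52.0% of all such probes called in either direction. The lines did not overlap for 8 of the 15 probes, against 46.0% of all probes. The median log2 fold change of the 15 probes was 0.25, also with the probe that has only a bound set at it, and that of all probes tested was -0.02. The 15 include the dimmer tested Egfr probes, which reached the filter only with CT26-FL3 and can raise this median. Over the 12 family probes detected on all 8 arrays the median was 0.18, against -0.02 for all such probes. A call together with a rise of at least 2-fold was made for 2.61% of all probes. In the family 4 probes met it, 3 of the single gene Egfr and 1 of Btc, A_51_P392242 among them. Of these 4, only A_52_P106259 of Egfr and the Btc probe were detected on all 8 arrays.

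**Figure D1:**
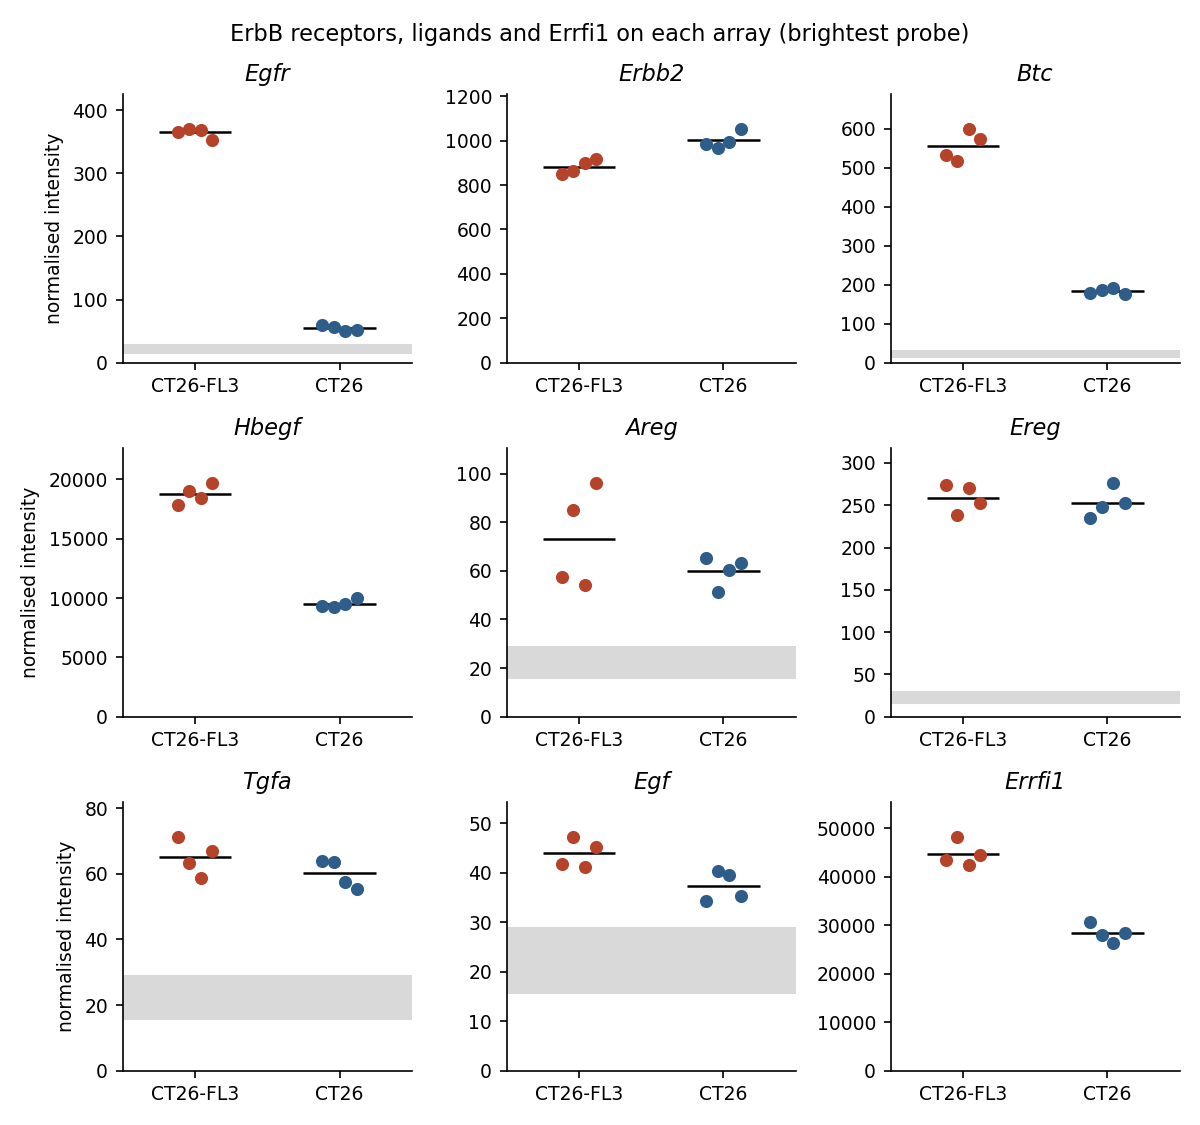
Normalised intensity (linear axes starting at 0) of the brightest tested probe of 9 genes on each array, with CT26-FL3 at the left and CT26 at the right of each panel. Points are arrays, horizontal lines are means of 4 arrays, and the grey band spans the detection limits of 15.8 to 28.7; the points of the lines lie apart for Egfr, Erbb2, Btc, Hbegf, Egf and Errfi1.

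The plot of values by array shows how far apart the lines lay for Egfr, Btc, Hbegf and Errfi1. It also shows how close to the detection limits Areg, Tgfa, Egf and the CT26 values of Egfr were. Its axes differ from panel to panel, and only the lines within a panel can be compared.

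Egfr encodes the receptor for EGF, TGF-alpha, amphiregulin and, in common with ERBB4, for betacellulin, epiregulin and HB-EGF. Its brightest probe, A_52_P106259, is printed as 10 spots on each array. In replicates 1 to 4 its normalised intensity was 366, 371, 369 and 353 in CT26-FL3, against 60.2, 57.0, 50.4 and 52.2 in CT26. All 4 CT26-FL3 arrays lay far above all 4 CT26 arrays, and all 8 arrays lay above the limit. The CT26 values were nevertheless low. With a constant of 50 added to each intensity, which draws dim values together, the log2 fold change was 1.94 in place of 2.73. The mean was 365 ± 8.03 in CT26-FL3 and 54.9 ± 4.49 in CT26 (SD, n = 4 each), a 6.66-fold difference (log2 fold change 2.73, SE 0.06, 95% confidence interval 2.59 to 2.88, limma adjusted p = 1.51e-08). In the order of log2 fold changes this probe stood at place 53 from the top among the 23068 probes. The 10 spots of an array spread by 0.09 to 0.45 on the log2 scale (SD within an array).

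The other Egfr probes were dimmer. A_51_P392242, also with 10 spots, had 58.6, 64.9, 59.1 and 61.3 in CT26-FL3, against 13.96, 13.8, 11.8 and 14.2 in CT26. The CT26 values all lay below the detection limit, so this probe has only a bound, at least 2.99-fold higher in CT26-FL3. As it was tested only through CT26-FL3, no p is given for it. A_52_P56471 had 49.5, 64.3, 47.5 and 64.7 in CT26-FL3, against 25.5, 21.3, 18.2 and 20.1 in CT26, where 2 of the 4 arrays lay above the limit. The lines did not overlap. The fitted log2 fold change was 1.41 (SE 0.14), or 0.59 with a constant of 50 added to each intensity, which draws dim values together. This probe reached the filter only with the CT26-FL3 arrays, and its other CT26 values lay below the limit. No p is therefore given for it, and its call is no support for a rise. A_52_P674338 had 21.6, 23.4, 24.5 and 31.5 in CT26-FL3, against 4.16, 14.6, 3.44 and 32.0 in CT26. CT26 replicate 4, the array with the highest limit, was the one CT26 array above it and made the lines overlap. This probe too reached the filter only with the CT26-FL3 arrays, so no p of it is support for a rise. The fitted log2 fold change was 1.47 (SE 0.65, limma adjusted p = 0.0934; the alternatives spanned 0.00737 to 0.393), with 3 of the 4 CT26 values below the limit. Leaving out CT26 replicate 3 gave 1.00 (adjusted p = 0.212), and leaving out CT26 replicate 1 gave 1.09 (adjusted p = 0.214). Without CT26 replicate 4 it was 2.07 (adjusted p = 0.00737), but no CT26 array above the limit is then left, so that neither this size nor its p can be read as a measured rise. The remaining probes, A_52_P175190 and A_52_P5855, lay below the limit on all 8 arrays, with values of 3.03 to 11.7 in CT26-FL3 and 3.05 to 10.02 in CT26.

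The array annotates A_52_P106259 and A_52_P674338 to the transcript NM_207655, A_51_P392242 and A_52_P56471 to NM_007912, A_52_P175190 to AK033431 and A_52_P5855 to AK049452. The probe letters are not used here, so it cannot be said which Egfr transcript a probe reads. The per-array difference between the brightest probe and each other probe of the same gene was compared between the lines for 6 pairs of probes with a two-sided exact permutation test. None of the 6 pairs passed after Benjamini-Hochberg adjustment. The smallest unadjusted p that this test allows with 4 against 4 arrays is 0.0286, so a few pairs at that floor could not pass among 6. That none passed therefore does not show that the probes of a gene changed alike. In the 3 pairs of Egfr the dimmer probe was below the limit on 2 to 4 of the CT26 arrays, so no size or p is given for how far their changes differ. The pairs of Erbb2, Ereg and Tgfa, detected on all 8 arrays, had an adjusted exact permutation p of 0.6 each.

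**Figure D2:**
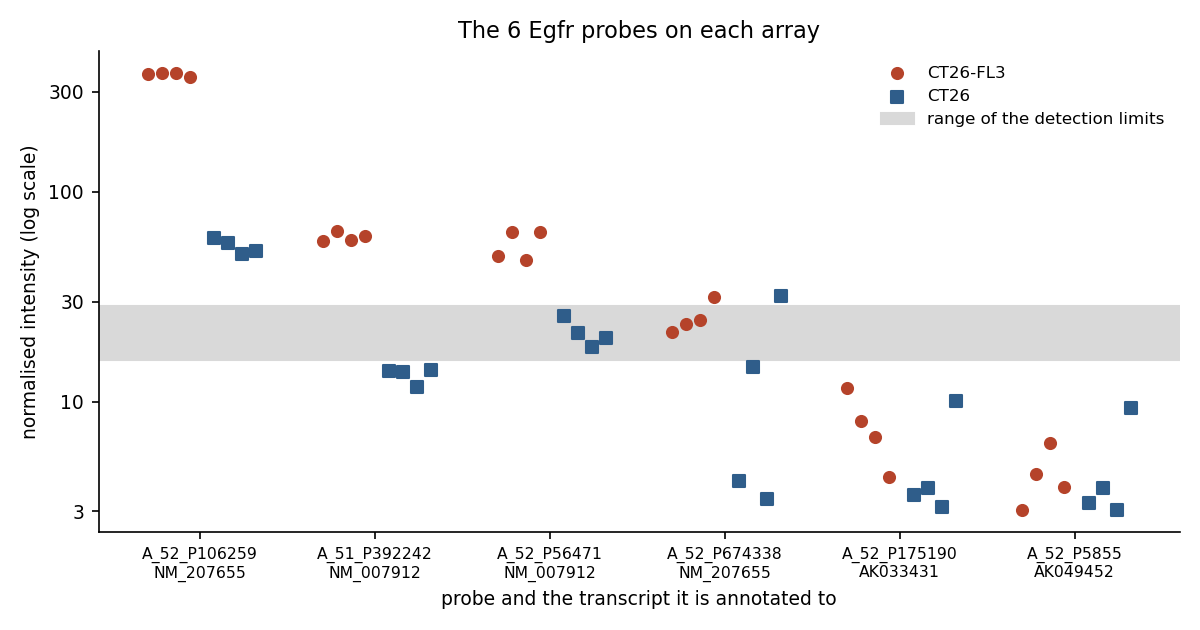
Normalised intensity (log axis) of the 6 Egfr probes on each array, with the transcript each is annotated to; circles at the left are CT26-FL3 replicates 1 to 4 and squares at the right CT26 replicates 1 to 4, and the grey band spans the detection limits. CT26-FL3 lies above CT26 on the first 3 probes, CT26 replicate 4 reaches the CT26-FL3 values on A_52_P674338, and the last 2 probes lie below the limits.

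The plot of the Egfr probes shows that CT26 replicate 4 was also the brightest CT26 array on both undetected probes. Its higher negative controls move with these values; their part in the overlap was not tested.

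The 250 bases before the Egfr start site are shown because Egfr had the largest rise of the family. They are from RefSeq on GRCm38.p6 and lie at chr11:16751953-16752202 on the plus strand. Capitals in this and the other promoters mark matches, on either strand, to TGANTCA (an AP-1 element), TGACGTCA (a cyclic AMP response element, CRE) or GGGCGG (a GC box). They were searched from 250 bases before to 50 bases after the start, in 9 windows of 7 of the 10 genes. Ereg and Erbb3 had no promoter in the list used, and the promoter of Hbegf is not reported here.
Egfr: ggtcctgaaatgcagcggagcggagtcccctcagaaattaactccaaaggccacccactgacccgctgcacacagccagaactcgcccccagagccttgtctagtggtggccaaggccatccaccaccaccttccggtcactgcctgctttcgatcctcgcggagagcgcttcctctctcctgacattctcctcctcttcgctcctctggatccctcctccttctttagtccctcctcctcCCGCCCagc
A single GC box lay 9 bases before the start, and neither other element was matched. Among all 32851 promoters of the table, 35.7% held a GC box, 7.81% the AP-1 letters and 1.79% the CRE letters. A match is a description of the letters and not a site in use.

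Erbb2, the receptor without a ligand, was slightly lower in CT26-FL3 on 1 of its 2 probes. On A_52_P49250, with 10 spots per array, the normalised intensity was 848, 863, 899 and 916 in CT26-FL3, against 987, 969, 995 and 1054 in CT26. The lines did not overlap, but the gap between them was smaller than the range of either line. The mean was 882 ± 31.5 in CT26-FL3 and 1001 ± 37.1 in CT26 (SD, n = 4 each; log2 fold change -0.18, SE 0.05, limma adjusted p = 0.0136). This call was lost in 6 of 24 alternatives, among them scaling by the median (-0.17, adjusted p = 0.112) and the replicates 1 and 2 (-0.19, adjusted p = 0.141) or 3 and 4 alone (-0.17, adjusted p = 0.164); the alternatives spanned 0.0090 to 0.164. The dimmer probe A_51_P216179 had 62.9, 54.8, 58.1 and 66.1 in CT26-FL3, against 72.3, 63.4, 69.4 and 54.4 in CT26, with a log2 fold change of -0.10 (SE 0.10, limma adjusted p = 0.457). Its lines overlapped.

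Erbb3 was not detected. Its 5 probes lay below the limit on all 8 arrays, so no fold change is given. Values ran from 2.73 to 16.9 in CT26-FL3, the highest in replicate 1 on A_52_P432949, and from 2.52 to 12.3 in CT26, the highest in replicate 2 on A_51_P488243. The other probes, A_51_P414813, A_51_P342050 and A_52_P133607, reached 10.04 in CT26-FL3 and 9.95 in CT26. The remaining receptor of the family, Erbb4, which binds neuregulins, averaged 2647 ± 314 in CT26-FL3 and 2659 ± 362 in CT26 (SD, n = 4 each). Its log2 fold change was -0.00 (SE 0.11, 95% confidence interval -0.26 to 0.26, limma adjusted p = 0.982), and this rests on 1 probe.

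Among the ligands, Btc had the largest rise. It encodes betacellulin, which binds EGFR and ERBB4. Its probe A_52_P672689 had 533, 517, 601 and 573 in CT26-FL3, against 178, 186, 193 and 175 in CT26. Every CT26-FL3 array was well above every CT26 array. The mean was 556 ± 38.2 in CT26-FL3 and 183 ± 7.85 in CT26 (SD, n = 4 each), a 3.04-fold difference (log2 fold change 1.60, SE 0.06, 95% confidence interval 1.46 to 1.74, limma adjusted p = 2.32e-07). The other Btc probe, A_51_P138429, is annotated to the same transcript, NM_007568, and lay below the limit on all 8 arrays (3.11 to 6.51 in CT26-FL3 and 3.03 to 9.34 in CT26), so that the rise rests on 1 probe.

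Hbegf encodes heparin-binding EGF-like growth factor, another ligand of EGFR and ERBB4. Its only probe, A_51_P181565, had 17802, 19017, 18460 and 19724 in CT26-FL3, against 9365, 9219, 9481 and 9989 in CT26. The lines were far apart compared with their spread. The mean was 18750.5 ± 817 in CT26-FL3 and 9513 ± 334 in CT26 (SD, n = 4 each), a 1.97-fold difference (log2 fold change 0.98, SE 0.05, 95% confidence interval 0.86 to 1.09, limma adjusted p = 1.21e-06).

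Egf, the founding ligand, was measured at a low intensity. Its only probe, A_52_P38627, with 10 spots, had 41.8, 47.3, 41.2 and 45.2 in CT26-FL3, against 34.3, 40.3, 39.6 and 35.3 in CT26. The lowest CT26-FL3 array was just above the highest CT26 array. The difference was 1.17-fold (log2 fold change 0.23, SE 0.07, limma adjusted p = 0.0281), while the 10 spots of an array spread by 0.15 to 0.45 (log2 SD). The call was lost in 11 of 24 alternatives, with adjusted p from 0.0206 to 0.199 over all of them. Among these were leaving out CT26-FL3 replicate 2 (0.0746) or replicate 4 (0.0686), or CT26 replicate 1 (0.0725) or replicate 4 (0.0702).

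The other ligand genes of the family did not pass. Areg, which encodes amphiregulin, had 57.4, 84.9, 54.4 and 96.3 in CT26-FL3, against 65.1, 51.4, 60.2 and 63.0 in CT26. CT26-FL3 replicates 2 and 4 were higher than all CT26 arrays, and replicates 1 and 3 were not; the log2 fold change was 0.25 (SE 0.19, 95% confidence interval -0.17 to 0.68, limma adjusted p = 0.301). With single arrays left out it lay between 0.11, without CT26-FL3 replicate 4, and 0.38, without CT26-FL3 replicate 3, and did not pass. Ereg, which encodes epiregulin, had 274, 239, 270 and 252 in CT26-FL3 on its brighter probe, A_51_P171215, against 235, 248, 277 and 253 in CT26. These lines overlapped widely, with a log2 fold change of 0.03 (95% confidence interval -0.12 to 0.18, limma adjusted p = 0.733). Its second probe, A_51_P157223, had 167, 152, 165 and 134 in CT26-FL3, against 137, 163, 143 and 124.7 in CT26, with a log2 fold change of 0.12 (-0.10 to 0.35, adjusted p = 0.335).

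Tgfa encodes transforming growth factor alpha, a ligand of EGFR alone. Its probe with 10 spots, A_51_P415126, had 71.3, 63.2, 58.8 and 66.8 in CT26-FL3, against 63.8, 63.7, 57.6 and 55.4 in CT26. The lines overlapped, and the log2 fold change was 0.11 (95% confidence interval -0.06 to 0.29, limma adjusted p = 0.257). The second probe, A_52_P555423, had 54.3, 73.3, 51.3 and 57.5 in CT26-FL3, against 61.5, 52.4, 58.7 and 63.2 in CT26, with a log2 fold change of -0.01 (-0.27 to 0.25, adjusted p = 0.970). The intervals for Ereg and Tgfa thus lie below the rises of Egfr, Btc and Hbegf, and that of Areg reaches up to 0.68.

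Epgn, Ereg, Areg and Btc, which encode epigen, epiregulin, amphiregulin and betacellulin, follow each other in this order on mouse chromosome 5 in RefSeq. Btc was the one of these 4 neighbours that passed the test. Epgn averaged 48.4 ± 6.38 in CT26-FL3 and 39.2 ± 11.02 in CT26 (SD, n = 4 each; log2 fold change 0.35, SE 0.22, limma adjusted p = 0.222). On the Epgn side the next gene, Mthfd2l, was lower in CT26-FL3 (-0.40, limma adjusted p = 0.00137), and beyond it Cxcl2 was below the limit on all arrays. On the Btc side, Parm1 had a log2 fold change of -0.39 (adjusted p = 0.0603) and Rchy1 one of -0.08 (adjusted p = 0.306). Those flanking genes were chosen for their place and not for their values.

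The stretches before the starts of the neighbours Btc and Areg are shown side by side because Btc rose and Areg did not pass. They are from RefSeq on GRCm38.p6, at chr5:91402995-91403244 on the minus strand for Btc and chr5:91139349-91139598 on the plus strand for Areg.
Btc: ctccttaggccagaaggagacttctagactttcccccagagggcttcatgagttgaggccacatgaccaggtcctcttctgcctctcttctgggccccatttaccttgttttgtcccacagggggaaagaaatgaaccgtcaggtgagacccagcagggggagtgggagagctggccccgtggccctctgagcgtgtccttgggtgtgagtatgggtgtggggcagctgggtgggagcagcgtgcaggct
Areg: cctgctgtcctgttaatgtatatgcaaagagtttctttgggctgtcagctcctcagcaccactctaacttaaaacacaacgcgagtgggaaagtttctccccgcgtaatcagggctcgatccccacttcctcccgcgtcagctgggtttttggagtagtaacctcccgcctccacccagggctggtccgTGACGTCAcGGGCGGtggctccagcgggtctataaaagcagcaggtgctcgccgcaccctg
No element was matched in the Btc window. The Areg window held the CRE letters 61 bases before the start and 2 GC boxes, one 52 bases before it and one 37 bases after it, past the printed stretch. The Tgfa window held 2 GC boxes, the nearer 15 bases before the start, and none of the elements was matched in the windows of Erbb2 and Egf.

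Errfi1, whose product inhibits the receptor kinase, also rose. Its only probe, A_51_P382393, had 43427, 48260, 42355 and 44497 in CT26-FL3, against 30688, 27916, 26336 and 28312 in CT26. The lines did not overlap. The mean was 44635 ± 2570 in CT26-FL3 and 28313 ± 1798 in CT26 (SD, n = 4 each), a 1.58-fold difference (log2 fold change 0.66, SE 0.06, 95% confidence interval 0.51 to 0.80, limma adjusted p = 5.30e-05). RefSeq lists 2 starts for Errfi1. The window of the second start is printed for its CRE letters, 51 bases before the start, which Areg has at a similar distance; it lies on GRCm38.p6 at chr4:150854820-150855069 on the plus strand.
Errfi1: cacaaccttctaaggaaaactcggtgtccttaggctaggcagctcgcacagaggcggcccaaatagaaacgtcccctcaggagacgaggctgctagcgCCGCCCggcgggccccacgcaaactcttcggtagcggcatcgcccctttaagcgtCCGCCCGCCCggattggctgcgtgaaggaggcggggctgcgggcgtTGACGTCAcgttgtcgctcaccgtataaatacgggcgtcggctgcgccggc
It also held 3 GC boxes, 152, 97 and 93 bases before the start, of which the last 2 overlap. The window of the other Errfi1 start held none of the elements.

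**Figure D3:**
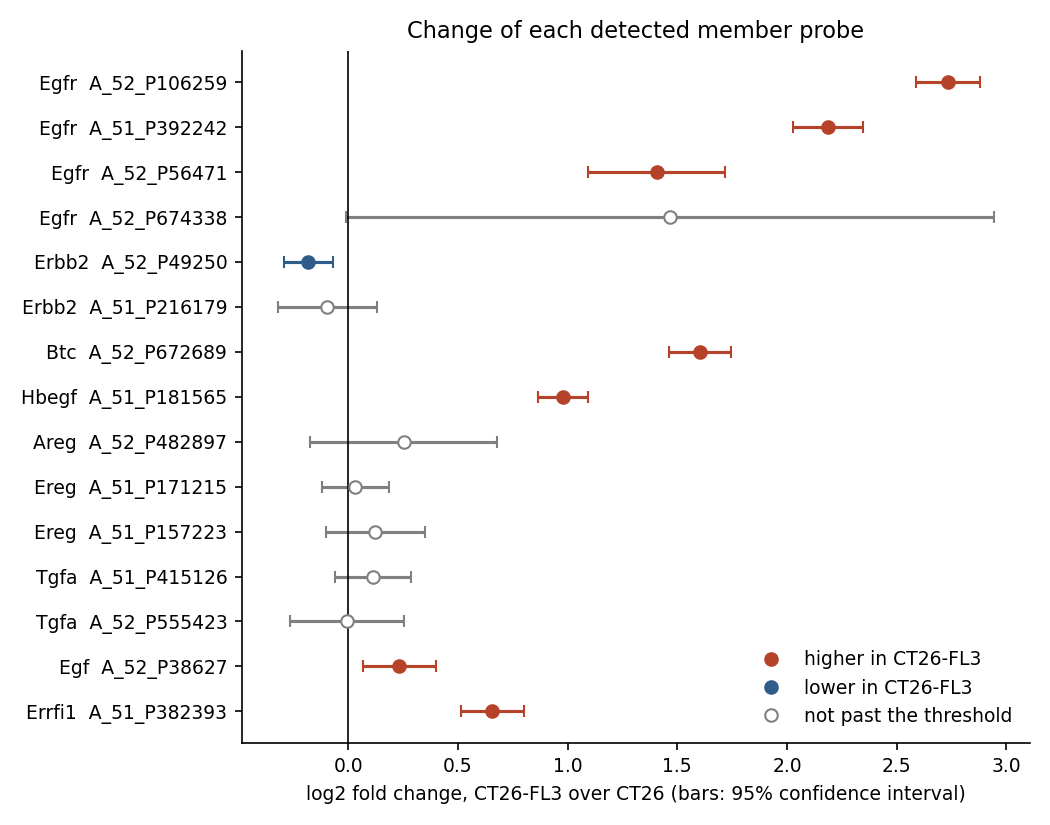
Log2 fold change (CT26-FL3 over CT26) of the 15 tested probes with 95% confidence intervals from limma, n = 4 arrays per line; filled red is higher in CT26-FL3, filled blue lower, and open grey did not pass. The intervals of the brightest Egfr probe (2.59 to 2.88), Btc (1.46 to 1.74), Hbegf (0.86 to 1.09) and Errfi1 (0.51 to 0.80) lie apart from 0; A_51_P392242 is drawn at its fitted value, although it has only a bound.

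The plot of fold changes orders the probes by role, and the widest interval in it is that of A_52_P674338. The arrays of replicates 1 and 2 of both lines share a number in their file names and those of replicates 3 and 4 share another, which no header explains. Among replicates 1 and 2 the log2 fold change was 2.65 for the brightest Egfr probe, 1.53 for Btc, 0.99 for Hbegf and 0.65 for Errfi1. Among replicates 3 and 4 it was 2.82 for Egfr, 1.68 for Btc, 0.97 for Hbegf and 0.67 for Errfi1, and all 8 values passed. With these sets as a block, 8 member probes were called, as without it.

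Among the remaining ErbB ligand genes, the neuregulins, none was called higher. Nrg1, a ligand of ERBB3 and ERBB4, averaged 737 ± 14.8 in CT26-FL3 and 958 ± 81.5 in CT26 (SD, n = 4 each; log2 fold change -0.38, SE 0.06, limma adjusted p = 0.00153). Its 4 tested probes ranged from -0.55 to -0.19, and among replicates 1 and 2 alone the call was lost (-0.37, adjusted p = 0.0841; the alternatives spanned 0.000179 to 0.0841). Nrg4 had a log2 fold change of 0.13 (adjusted p = 0.521), and Nrg2 and Nrg3 were below the limit on all arrays. Of the 4 genes tested in this list of 6 (Erbb4, Nrg1 to Nrg4 and Epgn), 0 were higher in CT26-FL3, 1 was lower and 3 did not pass, with a median log2 fold change of 0.06. Over all genes, taken by their brightest tested probe, 23.8% were called higher, 25.0% lower and 48.8% in either direction, with a median of -0.01.

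Of 11 genes of ligand shedding, 4 rose, 4 fell and 3 did not pass (median 0.09, the same with Adam12 at its bound). For this list and the next, the shares over all genes were 23.8% higher and 25.0% lower. Adam19, a metalloprotease gene, rose by 1.35 (SE 0.07; 0.46 on the lowest of its 3 tested probes), and Rhbdf2, whose product iRhom2 carries ADAM17 to the cell surface, rose by 0.81 (SE 0.06). Adam12, whose product can shed HB-EGF, was not detected in CT26-FL3 and was at least 3.30-fold lower there; it is counted among the 4 that fell but was tested only through CT26. Adam8 fell by 0.55 (SE 0.10). Inhibitors of the receptor and its ubiquitin machinery had 16 genes tested, of which 8 rose, 2 fell and 6 did not pass (median 0.16); among replicates 1 and 2 alone 1 rose, and among 3 and 4 alone 2 rose. Zfp36, which encodes an RNA-binding protein that promotes mRNA decay, rose by 0.77 (SE 0.06). Lrig2 rose by 0.41 (SE 0.09), and Lrig1, whose product promotes loss of ErbB receptors from the membrane, by 0.33 (SE 0.06). Ptprj, a receptor phosphatase gene, fell by 0.46 (SE 0.08).

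Genes of receptor endocytosis and sorting were divided, with 7 of 17 higher, 4 lower and 6 not past the threshold (median 0.07). For this list and the next, the shares over all genes were 23.8% higher, 25.0% lower and 48.8% in either direction. The recycling endosome gene Rab11fip1 rose by 1.21 (SE 0.07), the endosomal sorting gene Stam by 0.50 (SE 0.11) and the clathrin pit gene Eps15l1 by 0.42 (SE 0.08), while the adaptor subunit gene Ap2a1 fell by 0.34 (SE 0.05). Of 31 genes for adaptors and first effectors of the receptor, 11 rose, 4 fell and 16 did not pass (median 0.02); Gab1 and Gab2 were below the limit on all arrays. The count of 4 was 2 when CT26-FL3 replicate 3 or 4 or CT26 replicate 1 or 4 was left out. Nck2, an SH2 and SH3 adaptor gene, rose by 0.60 (SE 0.05), the RAS exchange factor genes Sos1 and Sos2 by 0.52 (SE 0.07) and 0.46 (SE 0.06), and the kinase gene Src by 0.43 (SE 0.04).

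Of 18 genes that ERK signalling is known to induce, 13 rose, 1 fell (Spry1, by 0.52) and 4 did not pass, against 23.8% of all genes called higher. Their median log2 fold change was 0.41. The summed normalised intensity of the list lay between 163310 and 172097 in CT26-FL3 and between 110260 and 114695 in CT26. This sum is set mostly by the brightest probes, those of Dusp6 and Egr1 among them, and does not speak for each gene of the list. Dusp6, which encodes a phosphatase of ERK, averaged 61467 ± 2002 in CT26-FL3 and 35668 ± 2247 in CT26 (SD, n = 4 each; 0.79, SE 0.06). Egr1, an immediate early transcription factor gene, rose by 1.05 (SE 0.05) and Myc by 0.84 (SE 0.07). Spred3, whose product belongs to a family of RAS pathway inhibitors, had 140, 158, 157 and 756 in CT26-FL3 and averaged 71.4 ± 3.41 in CT26. Its rise of 1.67 (SE 0.49, limma adjusted p = 0.0207) rested in part on CT26-FL3 replicate 4 and was 1.09 without it (adjusted p = 1.72e-05; the alternatives spanned 1.72e-05 to 0.103). Among replicates 3 and 4 alone 8 genes of the list rose.

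Of 10 co-receptors and partners of the family, 1 was higher in CT26-FL3, 6 were lower and 3 did not pass (median -0.38). The shares over all genes were 23.8% higher and 25.0% lower. Nrp1, a co-receptor of several growth factors, averaged 21.4 ± 4.13 in CT26-FL3, where 2 arrays were above the limit, and 141 ± 1.74 in CT26 (SD, n = 4 each; -2.74, SE 0.12). It is counted among the 6 that were lower, but it reached the filter only with the arrays of CT26, the line in which it is high. Its call is therefore no support for a fall, and its log2 fold change ran from -2.85 to -1.31 over the alternatives. The integrin gene Itgb4 fell by 1.06 (SE 0.05) and the hepatocyte growth factor receptor gene Met by 0.55 (SE 0.06), while Sdc1, which encodes a heparan sulfate proteoglycan, rose by 0.67 (SE 0.06). Without CT26-FL3 replicate 1, 2 genes of this list were called higher.

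**Figure D4:**
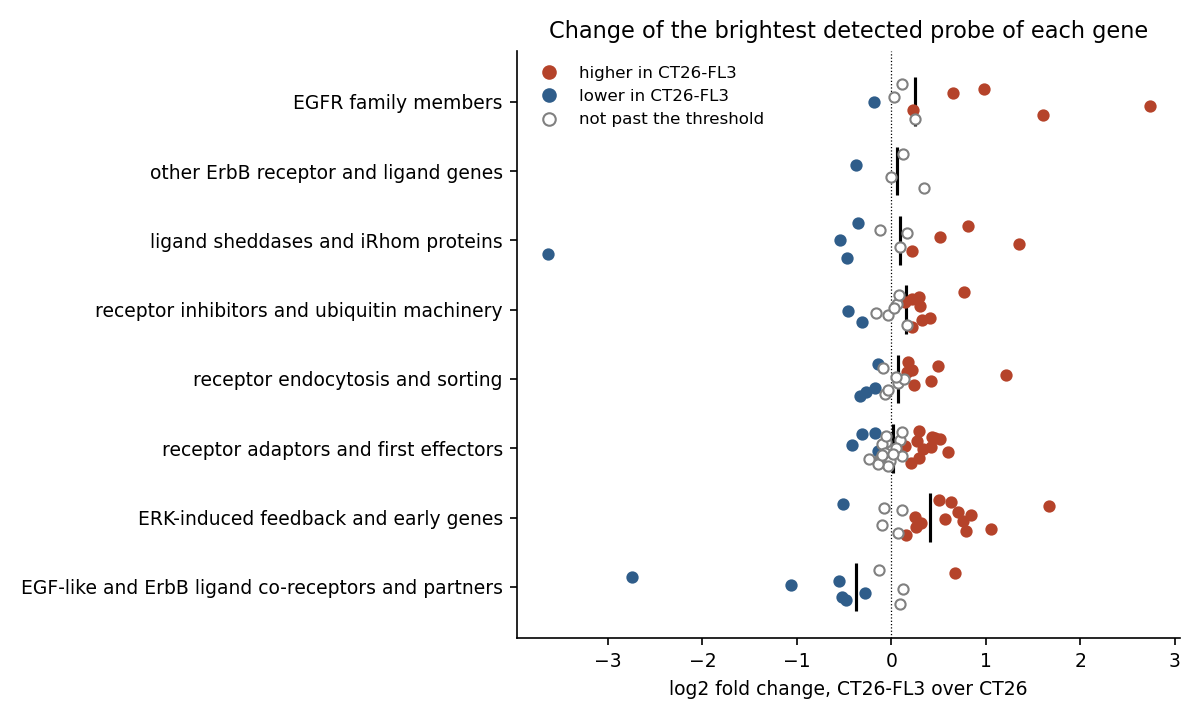
Log2 fold change (CT26-FL3 over CT26) of the brightest tested probe of each gene, for the family and 7 lists of genes around it; points are genes, the vertical bar in each row is the median of its tested genes, and colour marks the call at an adjusted p of 0.05. The medians are 0.41 for genes induced by ERK and -0.38 for co-receptors and partners; Adam12, at the far left of its row, is drawn at its fitted value.

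The plot of the lists sets the family beside them, and in it Egfr is the point farthest to the right. The lists were chosen by known function, but with earlier results of these data known. Their counts are descriptions and not tests of the lists.

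Genes whose values followed those of Egfr most closely over the 8 arrays were Lgi2, Tspyl4 and the prostacyclin receptor gene Ptgir, with root mean square differences of 0.0919, 0.0940 and 0.0952 between centred log2 values, among 11613 genes detected on all arrays. Their log2 fold changes were 2.80, 2.58 and 2.66. Those closest to Erbb2 were H2-K1, Arfip2 and Blzf1 (0.0280, 0.0291 and 0.0295), with log2 fold changes of -0.15, -0.20 and -0.17. This likeness is a description over 8 arrays of 2 lines. The measure is set largely by the difference between the lines, so it picks genes with a similar log2 fold change by construction.

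The lines were also read against 10 markers of the colon epithelium. Of these, 5 were below the limit on all 8 arrays: Cdx1, Vil1, Epcam, Cdh1 and Krt19. All 4 markers tested were higher in CT26-FL3, against 23.8% of all genes, led by the keratin genes Krt8 (2.23) and Krt18 (1.56). The summed intensity of the 10 markers was 3447 to 3731 in CT26-FL3 and 1687 to 1777 in CT26. Whether the lines are epithelial was not tested. Markers of cells that a liver lesion can hold moved in both directions: 1 of 3 tested hepatocyte markers rose (Apoa1, by 0.24) and none fell. Of 6 cholangiocyte markers 1 rose and 3 fell, led by Aqp1 (-2.69) and Krt7 (-1.63). Of 7 fibroblast markers 1 rose and 5 fell, with Dcn at 3.32 and Col1a1 at -0.76. The share of all genes called lower was 25.0%. Of 5 macrophage markers 2 rose, Aif1 by 0.53 and Cd68 by 0.38, and Lyz2, detected on CT26 arrays alone, was at least 2.03-fold lower. Tie1, an endothelial marker detected on CT26-FL3 arrays alone, was at least 1.64-fold higher; Lyz2 and Tie1 were tested only through the line in which they are high. The other endothelial markers tested, Vwf and Stab2, did not pass, and of 3 lymphocyte markers 0 passed in limma, with 0 at an unadjusted p under 0.05. Without CT26-FL3 replicate 1 or 4 Apoa1 did not pass, and without CT26 replicate 1 Vwf did.

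Below the limit on all 8 arrays were 3 of 9 hepatocyte markers (Alb, Cyp2e1 and Ahsg), 2 of 8 cholangiocyte markers (Krt19 and Cftr) and 3 of 10 fibroblast and stellate cell markers (Lum, Des and Lrat). The same held for 5 of 10 macrophage markers (Adgre1, Clec4f, Cd163, Vsig4 and Ptprc), 4 of 8 endothelial markers (Pecam1, Cdh5, Kdr and Lyve1) and 5 of 10 lymphocyte markers (Cd3d, Cd8a, Ncr1, Ms4a1 and Ptprc). Other markers of these lists were clearly detected, with means of 205422 in CT26-FL3 and 215420 in CT26 for the collagen gene Col1a2, 17546 in CT26-FL3 and 1761 in CT26 for Dcn, 692 in CT26-FL3 and 534 in CT26 for Cd68, and 59.3 in CT26-FL3 and 45.9 in CT26 for Vwf. Summed intensities are weighted to the brightest probes of a list. For hepatocyte markers they were 218 to 259 in CT26-FL3 and 191 to 328 in CT26. For fibroblast markers they were 252746 to 273598 in CT26-FL3 and 248554 to 290629 in CT26. For macrophage markers they were 838 to 888 in CT26-FL3 and 671 to 779.8 in CT26. For endothelial markers they were 188 to 224 in CT26-FL3 and 169 to 188 in CT26, and for lymphocyte markers 192 to 253 in CT26-FL3 and 186 to 252 in CT26. The part of other cells in the family's values was not tested.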

How the data were processed

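For each array the authors deposited spot intensities, already background-subtracted as the negative controls show (medians of 2.23 to 7.43 units), and for the series log2 values per probe, centred on each probe's median. The columns of log2 values had medians of -0.01 to 0.02 and correlated with the centred array values at 0.985 to 0.997, which settles scale and direction. Their normalization is not named, but all columns shared a sum of 1039.88. With them Hbegf rose by 1.025, against 1.029 with quantile normalization and 0.979 in the main test. The deposited values are therefore no separate check from quantile normalization. The submitters' processing notes name Agilent Feature Extraction, with no version. The planned flags were replaced: the 153 negative controls of an array gave its detection limit, as their median standard deviation times 2.6. Controls (1639 of 45018 spots) and failed spots (3 to 76) were left out, spots of a probe averaged as log2 intensity, and the 75th percentile (808 to 1152 units) of each array subtracted. Between 52.8 and 58.2% of probes were detected, and the number of arrays sets the precision. Arrays correlated at 0.997 to 0.998 within a line and 0.987 to 0.988 between lines.

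Grouping followed the labels' sample names. The test was limma 3.58.1 (R 4.3.3), unblocked, two-sided, with Benjamini-Hochberg adjustment over 23068 probes, checked on simulated data. For a bound, the mean of the brighter line was divided by that of the dimmer one, whose arrays were first raised to their lowest detected signal where below it. Symbols came from the platform annotation, updated through RefSeq (GRCm38.p6); the files name no build. All members and other ErbB genes were named, up to 4 called genes with the largest change per list, 2 per marker list, and 3 genes most like Egfr and Erbb2; Spry1, neighbours of the ligand genes and undetected genes were added. Members and lists were chosen with earlier results of these data known. Alternatives covered scaling, background, filters, probes per gene, the prior, blocks, array sets, the deposited log2 values and single arrays left out.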

Additional observations from a re-analysis of the deposited data

Results flagged for a closer look

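For the family's probes and the named genes, the 4 arrays of each line were searched for 1 array far from the other 3. It was found in 13 groups, 10.7% of those searched, and chance gives about 5%, or 1 in 20. In the family, Egfr probe A_51_P392242 was lowest in CT26 replicate 3 (11.8), below the limit like the other CT26 arrays. Undetected Erbb3 probes had a high array: A_51_P414813 in CT26-FL3 replicate 3 (10.0), A_51_P488243 in CT26-FL3 replicate 3 (5.52) and A_51_P342050 in CT26 replicate 4 (8.73). No family probe that was detected on all 8 arrays had one.

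Among other genes, a high array was found for Spred3 in CT26-FL3 replicate 4 (756), Krt7 in CT26-FL3 replicate 2 (113), Lyz2 in CT26 replicate 2 (45.6) and Stam in CT26 replicate 4 (2800.1). A low array was found for Egr1 (25942), Lrig2 (1072) and Sdc1 (2671), each in CT26-FL3 replicate 1, for Rhbdf2 in CT26 replicate 2 (955) and for Apoa1 in CT26 replicate 4 (64.3). All are normalised intensities, and the causes were not tested.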

How the results depend on the processing

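Under 24 alternatives no result changed sign while called. The number of family probes called was 8, between 6 and 8 under all alternatives but one; it was 5 when the mean of a gene's tested probes stood for the gene, which left 9 features of the family, and 7 to 8 with 1 array left out. Of all probes 11131 were called; within replicates 1 and 2 it was 5756 and within replicates 3 and 4 it was 5728, in fits of 2 arrays against 2, and with 1 array left out it was 10056 to 10696. Replicate numbers did not pair the samples: deviations of samples with the same number in the sample names correlated at 0.02, 0.09, -0.03 and 0.17, and with the same title number at 0.08, -0.16 and 0.10. Across the lines, arrays of the same set in the file names correlated at a mean of 0.09 and arrays of different sets at -0.09. Deviations were taken from each line's own mean, so the value for different sets largely mirrors the other and is no separate evidence. A replicate block by the numbers in the sample names called 8 family probes and 10305 of all probes, and a replicate block by title numbers called 6 and 8028; that block ended the calls of Erbb2 (adjusted p = 0.0555) and Egf (adjusted p = 0.124). The brightest Egfr probe lay between 1.94 and 2.82, Btc between 1.36 and 1.68, Hbegf between 0.95 and 1.03 and Errfi1 between 0.62 and 0.70, called under all 24. The fitted log2 fold changes of the dimmer Egfr probes A_51_P392242 and A_52_P56471 fell to 0.79 and 0.59 with a constant of 50 added. A_52_P674338 passed in limma with normexp (0.32, adjusted p = 0.040) and with a prior that follows intensity (1.47, adjusted p = 0.0426). As that probe reached the filter only with the CT26-FL3 arrays, these passes are no support for a rise. Of 38 named genes of other lists, 10 lost their call somewhere, 8 of these within an array set alone; the causes were not tested. List counts that moved by over 1.5 times did so mostly within the array sets (replicates 1 and 2, then 3 and 4). Higher genes numbered 3 and 3 there for endocytosis (7 in the full fit), 5 and 4 for adaptors (11), 1 and 2 for inhibitors (8) and 0 and 1 for macrophages (2), and within replicates 3 and 4 8 for ERK-induced genes (13). Lower genes numbered 1 and 0 for endocytosis (4), 1 and 2 for adaptors (4) and 1 and 0 for inhibitors (2), and within replicates 1 and 2 2 for shedding (4) and 0 for other ErbB genes (1). Without a filter 5 inhibitor genes and 4 endocytosis genes were higher, and 2 lower each for endocytosis and adaptors, as with scaling by the median and with the title block. Signal near background limits Egf, Areg, Tgfa, the dimmer Egfr probes and the CT26 values of the brightest Egfr probe.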
